A study of Saccharomyces cerevisiae with 3 samples.

Results

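Sister chromatids, the paired copies of each replicated chromosome, are held together until anaphase by cohesin. Cohesin is a ring of Smc1, Smc3 and the kleisin Mcd1, with Irr1 (also called Scc3) bound to it. The Scc2-Scc4 loader places the ring on DNA, the acetyltransferase Eco1 and the bound factor Pds5 make it stable, and the protease separase (Esp1) opens it by cutting Mcd1 once its inhibitor securin (Pds1) has been destroyed. The genes for these 10 proteins were taken by name from the 6002 nuclear protein-coding genes of budding yeast (Saccharomyces cerevisiae), and all 10 were found. Each gene was examined from 500 bp before its start codon to its stop codon.

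The data are 2 lists of enriched regions (peaks) from chromatin immunoprecipitation, 1 for histone H3 dimethylated at lysine 4 (H3K4me2) and 1 for the trimethylated form (H3K4me3). In yeast both marks are placed by the COMPASS complex on transcribed genes, the trimethylated form mainly at their beginnings. All 3 samples of the series, 1 library per antibody and 1 input without antibody that has no list of its own, came from the strain BY4741, grown in YEPD to mid-log phase. BY4741 is a laboratory strain in which HIS3, LEU2, MET15 and URA3 have been inactivated by deletion. No peak of either mark touched LEU2, MET15 (listed as MET17) or URA3, while an H3K4me3 peak covered 60.6% of HIS3, of which the strain is known to lack an internal part only. The culture was not described as synchronised, so the values stand for cells at all stages of the cycle.

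The H3K4me3 list held 3714 peaks with 1644589 tags (sequenced fragments) inside them, and the H3K4me2 list held 2998 peaks with 1492318 tags. The depth of the libraries is unknown, since tags outside peaks are not listed. With 1 library per mark, no value has a replicate check and no test between marks or genes was possible, and intervals on tags cover counting error only. The lists hold nothing below the peak caller's threshold (lowest scores 50.09 and 50.02, on what was read as a scale of -10 log10 p), so a gene without a peak may carry a weaker mark.

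Most of the cohesin genes carried H3K4me3 at their start, and all but 1 of those carried H3K4me2 as well. A start was called marked when peaks covered at least 50% of the first 500 bp of the gene. H3K4me3 met this rule in 7 of the 10 genes, SMC1, MCD1, IRR1, SCC2, SCC4, ECO1 and PDS1 (70%, exact Clopper-Pearson 95% interval 34.8 to 93.3), and in 64.6% of all nuclear protein-coding genes. H3K4me2 met it in 6 of 10 (60%, 26.2 to 87.8), the same genes without SCC2, against 43.5% of all genes. Both marks therefore lay at 6 starts, against 38.4% of all genes. SCC2 had H3K4me3 alone, a class that held 26.2% of all genes, and SMC3, PDS5 and ESP1 had neither mark, like 30.3% of all genes. No cohesin gene had H3K4me2 alone, which with 10 genes allows a share of up to 30.8% (upper limit of the exact 95% interval), and 5.1% of all genes were in that class. The exact 95% intervals of all 6 counts include the background shares, so with 10 genes none of these counts stands apart from the genome. All 10 genes are at least 846 bp long, whereas the shares of all genes include shorter ones. Of the 4115 genes of at least that length, 52.1% were under H3K4me2 at 245 bp after the start codon and 60.5% at 495 bp.

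The marked and the unmarked starts were far apart in coverage. In the 7 marked genes H3K4me3 covered 100% of the start window and in the other 3 it covered 0%. For H3K4me2 the covered share was 100% in SMC1, MCD1 and IRR1, 99.6% in PDS1, 87.2% in ECO1 and 57.4% in SCC4, the gene closest to the limit, and 0% in the remaining 4. The 3 unmarked genes were all long. Of the 6 cohesin genes of at least 3000 bp, 3 had H3K4me3 and 2 had H3K4me2 at the start, while all 4 shorter ones had both. Over the genome the long genes were not the less marked ones, since 66.8% of genes of at least 3000 bp had H3K4me3 at the start and 46.1% had H3K4me2, beside 64.4% and 43.3% of shorter genes.

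**Figure D1:**
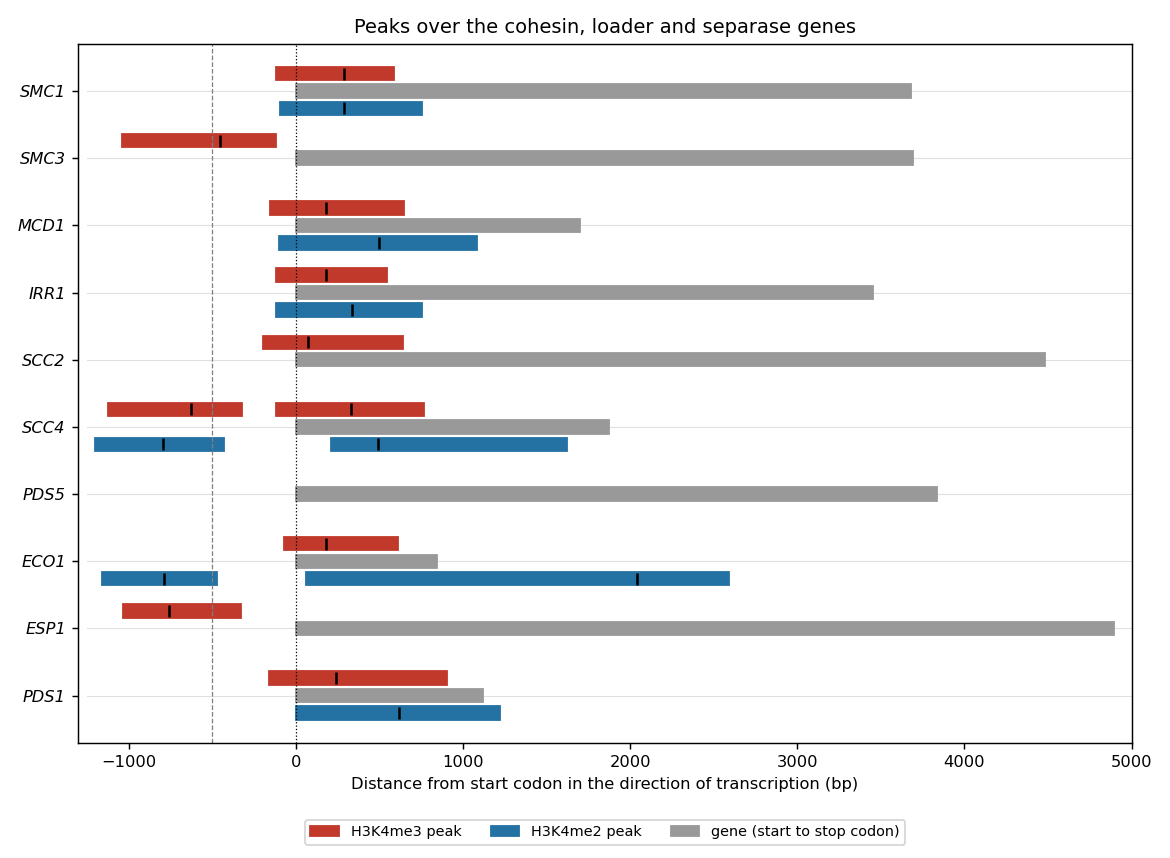
Position of every peak that overlaps the examined window of each gene, in bp from the start codon along the direction of transcription. Red bars are H3K4me3 peaks, blue bars H3K4me2 peaks, grey bars the gene and black ticks the authors' summits, the dashed line marks 500 bp before the start codon, and other peaks nearby are not drawn. Peaks sit over the first part of 7 genes, while SMC3 and ESP1 are met only by a peak upstream of the gene and PDS5 by none.

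Among the ring subunits, SMC1, MCD1 and IRR1 had both marks and SMC3 had neither. SMC1 (YFL008W, chromosome VI, 119429 to 123106, plus strand, 3678 bp) encodes a subunit of the ring that binds and hydrolyses ATP. Its H3K4me3 peak ran from 119 bp before to 588 bp after the start codon with 299 tags, a fold enrichment of 2.93 and the summit at 288 bp. Its H3K4me2 peak ran from 92 bp before to 755 bp after it with 302 tags, a fold of 2.27 and the summit at 290 bp. The marks thus lay nearly on top of each other, with summits 2 bp apart and 77.8% of the bases under either peak shared by both. The H3K4me2 peak was a weak one, with a score of 77.84 and a fold above that of 9.01% of the peaks in its list. The 2922 bp from the end of that peak to the stop codon held no peak of either mark.

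IRR1 (YIL026C, chromosome IX, 304477 to 307929, minus strand, 3453 bp), whose product Irr1 contacts the ring and DNA, was marked almost as SMC1 was. H3K4me3 ran from 116 bp before to 548 bp after the start codon with 258 tags and its summit at 179 bp. At 3.37-fold it had the highest H3K4me3 fold of the 10 genes, above 71.0% of the peaks in the list. H3K4me2 ran from 117 bp before to 758 bp after the start codon with 311 tags, 2.37-fold, the summit at 335 bp and a score of 77.98. As in SMC1, the last part of the gene, here 2694 bp, was free of peaks.

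MCD1 (YDL003W, also known as SCC1, chromosome IV, 444683 to 446383, plus strand, 1701 bp) encodes the kleisin that closes the ring and that separase cuts. Its H3K4me3 peak, from 156 bp before to 649 bp after the start codon, held 281 tags at 2.75-fold with the summit at 178 bp. Its H3K4me2 peak reached further, from 99 bp before to 1082 bp after the start codon, with 529 tags at 2.53-fold and the summit at 497 bp. H3K4me2 covered 63.7% of the gene and H3K4me3 38.2%. The summits were 319 bp apart, close to the median of 305 bp (quartiles 82.5 and 470.5) over the 2307 genes with both marks at the start.

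SMC3 (YJL074C, chromosome X, 299157 to 302849, minus strand, 3693 bp), which encodes the ring's other ATPase subunit and the target of Eco1, had no peak of either mark between start and stop codon. The only peak in its window was an H3K4me3 peak lying 120 to 1039 bp before its start codon, with 316 tags at 2.48-fold. That peak covered the start codon of JEM1 (YJL073W), a gene for a chaperone of the endoplasmic reticulum that is read in the opposite direction with its start codon 332 bp away. The summit lay 124 bp inside JEM1 and 456 bp before SMC3. The peak thus covered 76.2% of the 500 bp upstream of SMC3 and none of the gene. From the edge of this peak to the other side of SMC3, 5767 bp (chromosome X, 297202 to 302968) held no peak, a stretch longer than 94.6% of the 3998 peak-free stretches of the genome, whose median was 816.5 bp.

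The loader genes both had H3K4me3 and differed in H3K4me2. SCC2 (YDR180W, chromosome IV, 821295 to 825776, plus strand, 4482 bp) encodes the loader subunit that stimulates the ring's ATPase. Its single peak was H3K4me3, from 197 bp before to 643 bp after the start codon, with 316 tags at 2.89-fold. Its summit at 73 bp was the closest to a start codon among the cohesin genes, and 10.1% of the 3880 genes with H3K4me3 at the start had a summit further upstream. The nearest H3K4me2 peak lay 2579 bp upstream of the start codon, and the last 3838 bp of the gene had no peak of either mark.

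SCC4 (YER147C, chromosome V, 462968 to 464842, minus strand, 1875 bp) encodes the loader subunit that directs the complex to chromatin. H3K4me3 ran from 118 bp before to 767 bp after the start codon with 330 tags, 2.87-fold, and the summit at 332 bp. H3K4me2 began inside the gene, at 213 bp, and ran to 1620 bp with 575 tags, 2.68-fold, and the summit at 494 bp. The H3K4me2 peak covered 75.1% of the gene and the H3K4me3 peak 41.0%, and 32.6% of the bases under either mark in the window were under both, the lowest such share of the 6 genes with both marks. The bases under H3K4me2 inside the gene were centred 533 bp downstream of those under H3K4me3.

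SCC4 is read away from SPT15 (YER148W), the gene of the TATA-binding protein, with start codons 461 bp apart, and each start had its own peaks. The SPT15 H3K4me3 peak held 365 tags at 4.27-fold, above 99.4% of the list, and was separated from that of SCC4 by 205 bp without H3K4me3. The H3K4me2 peaks of the pair were 644 bp apart. By fold, the SPT15 side was thus the higher in H3K4me3 and the SCC4 side in H3K4me2, where SPT15 had 2.46-fold with 296 tags.

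Of the regulator genes, ECO1 had both marks and PDS5 had neither. PDS5 (YMR076C, chromosome XIII, 416196 to 420029, minus strand, 3834 bp), whose product binds the ring and can both protect it and assist its release, had no peak in any base of its window. This held for 22.2% of genes of at least 3000 bp and for 19.5% of all genes. The nearest H3K4me3 peak was 3915 bp upstream of the start codon and the nearest H3K4me2 peak 8399 bp upstream of it. On the stop codon side peaks were closer to the gene, at 2547 bp for H3K4me3 and 5517 bp for H3K4me2. PDS5 lay in a peak-free stretch of 10294 bp (chromosome XIII, 413650 to 423943), the 46th longest of 3998. The stretch also held RCO1, a subunit gene of the Rpd3S histone deacetylase, the ESCRT-III gene VPS20 and YMR075C-A, none of them under a peak.

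ECO1 (YFR027W, also known as CTF7, chromosome VI, 207452 to 208297, plus strand, 846 bp), the shortest of the 10, was fully under peaks. H3K4me3 ran from 72 bp before to 612 bp after the start codon with 228 tags at 2.6-fold, the lowest tag number and fold among the 7 marked starts, and with a score of 73.98. An H3K4me2 peak of 1135 tags and 2.85-fold began at 64 bp and continued to 2589 bp, past the end of ECO1 and into CDC14 (YFR028C). CDC14 encodes the phosphatase that drives exit from mitosis and is read towards ECO1. At 2526 bp the peak was the 15th widest of the H3K4me2 list and ended 27 bp short of the CDC14 start codon. Its summit lay 2040 bp after the ECO1 start codon and 576 bp inside CDC14, so its tags and fold do not describe ECO1 alone. CDC14 had its own H3K4me3 peak (3.65-fold, 596 tags). A separate H3K4me2 peak of 268 tags, whose summit was nearest to the start codon of the divergent gene ULI1, touched the first 28 bp of the ECO1 window.

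The gene of separase had neither mark and that of its inhibitor had both. ESP1 (YGR098C, chromosome VII, 682566 to 687458, minus strand, 4893 bp), the separase gene and the longest of the 10, had no peak between start and stop codon. No peak of either mark inside the gene was found in 28.3% of genes of at least 3000 bp. An H3K4me3 peak of 259 tags and 2.47-fold lay 325 to 1031 bp before its start codon and covered 3.26% of the window. It covered the start codon of TEL2 (YGR099W), a gene for a factor that assembles large checkpoint kinases, which is read in the opposite direction from 441 bp away, and its summit was 316 bp inside TEL2. The peak-free stretch over ESP1 was 5730 bp long (chromosome VII, 682053 to 687782).

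PDS1 (YDR113C, chromosome IV, 680496 to 681617, minus strand, 1122 bp), the securin gene, was under a peak of one mark or the other over its full length. H3K4me3 ran from 161 bp before to 905 bp after the start codon with 448 tags at 3.34-fold and the summit at 238 bp. H3K4me2 ran from 2 bp after the start codon to 1222 bp, beyond the stop codon, with 574 tags at 2.83-fold and the summit at 617 bp. The scores, 351.49 and 293.84, were above those of 69.9% and 77.7% of the peaks in the respective lists. Among the 7 marked starts PDS1 had the most H3K4me3 tags, and its H3K4me3 peak was the widest at 1067 bp.

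For H3K4me3 most of the cohesin peaks were by value less dense than the median peak of the list, while for H3K4me2 they lay on both sides of it. Tags per kb of peak make peaks of different width comparable within a list. For H3K4me3 the order was SMC1 (422 tags per kb, exact Poisson 95% interval 376 to 473), PDS1 (420, 382 to 461), IRR1 (388), SCC2 (376), SCC4 (372), MCD1 (349) and ECO1 (333, 291 to 379). Neighbours in this order overlapped in their intervals, and PDS1 and ECO1 were the only pair whose intervals did not overlap. The median of all H3K4me3 peaks was 406 tags per kb, and 5 of the 7 lay below it.

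For H3K4me2 the order was PDS1 (470, 432 to 510), ECO1 (449, 424 to 476), MCD1 (448, 410 to 487), SCC4 (408, 376 to 443), SMC1 (356, 317 to 399) and IRR1 (355, 317 to 397), with a list median of 426. SMC1 and IRR1 lay below PDS1, ECO1 and MCD1 without overlap of the intervals, and above only 4.67% and 4.47% of the peaks in the list. By value the order of the genes differed between the marks, since SMC1 was first for H3K4me3 and next to last for H3K4me2. Its first place is not firm, since its H3K4me3 interval overlapped those of all other marked genes. The H3K4me2 value of ECO1 belongs to a peak that mostly covers CDC14. The H3K4me3 fold of the 7 start peaks ranged from 2.6 to 3.37 with a median of 2.89, and over all 3880 genes marked at the start the median was 3.12.

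**Figure D2:**
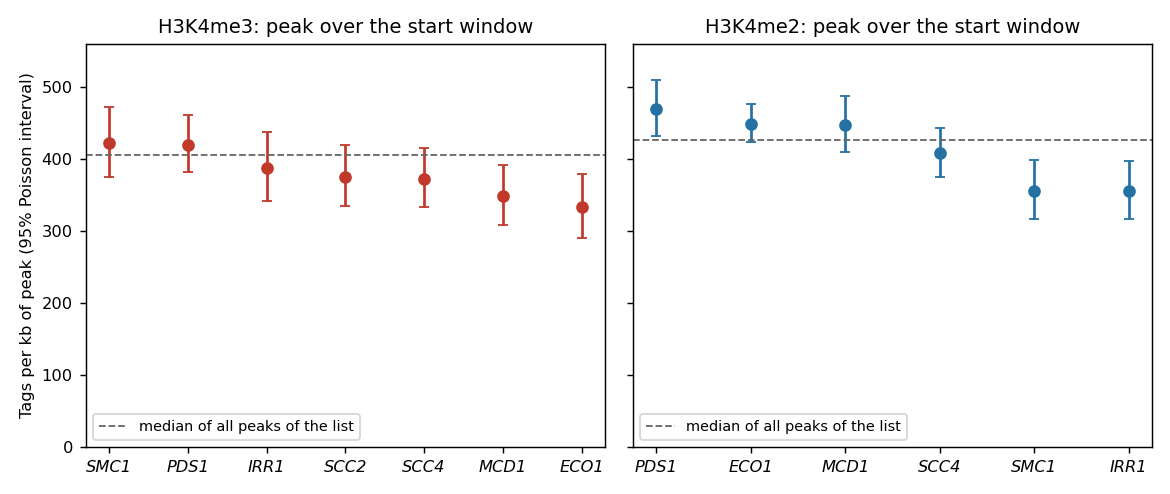
Tags per kb of the peak over the start window of each marked gene, with exact 95% Poisson intervals that cover counting error only, for H3K4me3 (left) and H3K4me2 (right); dashed lines are the medians of all peaks of each list. ECO1 is lowest for H3K4me3, while SMC1 and IRR1 are lowest for H3K4me2, where the ECO1 value belongs to a peak that mostly covers CDC14.

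The 7 H3K4me3 start peaks began near the usual place, and most of them ended earlier than is usual. Their upstream edges lay between 197 and 72 bp before the start codon, with a median of 119 bp before it, and the median over all 3880 marked genes was 130 bp before it. Their downstream edges lay between 548 and 905 bp after the start codon with a median of 643 bp, and over all marked genes the median was 844 bp (quartiles 688 and 1048). In 5 of the 7 genes, all but SCC4 and PDS1, the edge lay before the lower quartile. These peaks also held few tags, with a median of 299 beside 412 over all marked genes, and the part of this in the early edges was not tested. The summits lay 73 to 332 bp into the gene, with a median of 180 bp, against 294.5 bp over all marked genes. The start codon itself was under H3K4me3 in 7 of 10 genes (59.6% of all genes) and under H3K4me2 in 3 of 10, SMC1, MCD1 and IRR1 (20.3% of all genes).

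**Figure D3:**
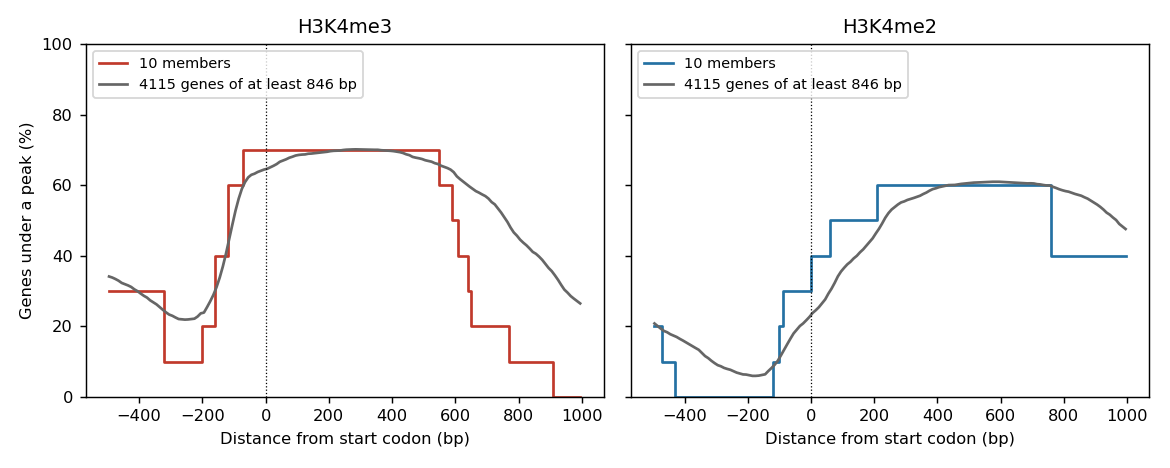
Share of genes under a peak at each 10 bp step from 500 bp before to 1000 bp after the start codon, for the 10 cohesin genes (coloured steps, each gene 10%) and all 4115 genes at least as long as ECO1, 846 bp (grey), with H3K4me3 on the left and H3K4me2 on the right. The H3K4me3 steps reach 70% at the start codon and fall earlier than the grey curve. The H3K4me2 steps reach 60%, and the grey curve stands at 60.5% at 495 bp.

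H3K4me2 lay downstream of H3K4me3 in every cohesin gene that had both. Inside the gene, the centre of the bases under H3K4me2 was further from the start codon in 6 of 6 genes (exact 95% interval 54.1 to 100%). The same held in 87.1% of the 2727 genes with both marks, so the count does not stand apart from the genome. The distance between the centres was 83.5 bp in SMC1, 105 bp in IRR1, 109 bp in PDS1, 148.5 bp in ECO1, 216.5 bp in MCD1 and 533 bp in SCC4. The median was 128.75 bp, beside 127 bp over all such genes (quartiles 42 and 231.5). By summit, H3K4me2 was downstream in 6 of 6 genes too, and in 87.1% of the 2307 genes with both marks at the start. The distance between summits ranged from 2 bp in SMC1 to 379 bp in PDS1, apart from the 1860 bp of ECO1, where the H3K4me2 summit is in CDC14.

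No peak over a marked cohesin start reached another start codon, although the H3K4me2 peak of ECO1 came within 27 bp of that of CDC14. That peak also covered 94.6% of the CDC14 start window. Of the 7 H3K4me3 start peaks 0 covered the start codon of a neighbour, against 13.7% of the start peaks of all marked genes. Of the 6 H3K4me2 start peaks 0 did so, against 4.71%. Whether these counts differ from the genome was not tested. Of the 10 genes, 4 were divergent from their upstream coding neighbour, SMC3, SCC4, ECO1 and ESP1. In SMC3 and ESP1 the H3K4me3 peak lay on the neighbour's side alone, and in SCC4 both sides were marked. Among the 765 divergent pairs of the genome with start codons 200 to 600 bp apart, a distance range chosen after these pairs were seen, H3K4me3 lay over both starts in 58.6%, over 1 start in 30.3% and over neither in 11.1%. In ECO1, whose start codon is 1195 bp from that of ULI1, ECO1 was marked and ULI1 was not.

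Tandem neighbours upstream were marked in some cases and not in others. CDC4, which encodes a ubiquitin ligase subunit and lies upstream of SMC1, and ATP16, which encodes an ATP synthase subunit and lies upstream of MCD1, had both marks at their own starts. ATG45 upstream of IRR1, NVJ3 upstream of SCC2 and YDR114C upstream of PDS1 had none, although all 3 of those cohesin genes were marked. VPS20 upstream of PDS5 had none either, and PDS5 was itself unmarked. At the other end, the last 500 bp of the gene were at least partly under H3K4me2 in SCC4 (49.2%), ECO1 (100%) and PDS1 (100%), and under H3K4me3 in ECO1 (53.4%) and PDS1 (56.8%).

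Over the whole window, H3K4me3 covered 65.8% in PDS1, 50.9% in ECO1, 44.8% in SCC4, 36.6% in MCD1, 16.9% in SMC1 and SCC2 and 16.8% in IRR1. In SMC3 and ESP1 it covered 9.09% and 3.26%, all of it upstream of the gene, and in PDS5 0%. H3K4me2 covered 69.1% in PDS1, 62.2% in SCC4, 60.2% in ECO1, 53.7% in MCD1, 22.2% in IRR1 and 20.3% in SMC1, and 0% in the other 4. The medians over the 10 genes were 16.9% for H3K4me3 and 21.2% for H3K4me2. Over genes of at least 3000 bp they were 19.1% and 15.7%, and over all genes 42.1% and 25.3%.

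Pairs of genes were also compared in 10 bp steps from 500 bp before to 1000 bp after the start codon, 150 steps per mark. Each mark was compared on its own at each step, as covered or not. The share given is that of matching states, with the steps of both marks pooled. Of the 45 pairs, SMC1 and IRR1 were most alike, at 97.7%, followed by PDS5 and ESP1 at 94.0% and SMC3 and ESP1 at 93.3%, pairs without a marked start. The least alike were SMC3 and PDS1 at 21.0%, ESP1 and PDS1 at 25% and SMC3 and MCD1 at 26.3%. Each of these pairs, the separase and securin genes among them, set an unmarked start beside one with both marks. The low shares restate that contrast. Among 3591 genes of at least 1000 bp, MCD1 was most like FAA3, STB5 and TOP3, each at 98.0%, with a median of 67.0% over all of them. PDS1 was most like its downstream tandem neighbour ALT2, BUD7 and KTR6, each at 98.3% (median 70.7%). ESP1 was most like APC4, BIG1 and OXP1, each at 99.7% and among 5 genes at that value (median 42.0%). These shares describe peak positions in 1 library per mark.

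Other genes of cohesion and of related SMC complexes mostly had H3K4me3 at the start, and fewer of them had H3K4me2 there. Of 29 such genes 21 had H3K4me3 at the start (72.4%), 7 had H3K4me2 (24.1%), 6 had both and 7 had neither, beside the 64.6%, 43.5%, 38.4% and 30.3% of all genes given above. Whether these shares differ from those of the cohesin genes was not tested. The exact 95% interval of the H3K4me2 share reached 43.54%, so the share of all genes lay only just inside its upper limit. The rule also leaves out H3K4me2 further into a gene, as in CTF4, where it covered 50.6% of the gene and 0% of the start window. Of 8 genes that act in cohesion during replication, 6 had H3K4me3, among them the helicase gene CHL1 (3.03-fold, 208 tags) and the fork protection gene TOF1 (2.43-fold, 191 tags), and 3 had H3K4me2. CSM3, which encodes the partner of Tof1, was the longest without H3K4me3 and had H3K4me2 alone (2.64-fold, 286 tags).

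Of 8 regulators and partners of cohesin and separase, 5 had H3K4me3 and 3 had H3K4me2. SLK19, which encodes a separase substrate, had H3K4me3 at 3.45-fold without H3K4me2, and ZDS1, which encodes a regulator of protein phosphatase 2A, had H3K4me3 at 2.75-fold with H3K4me2 at 2.97-fold. ZDS2, the paralogue of ZDS1, had neither. All 5 condensin genes had H3K4me3, from 2.8-fold at YCS4 to 3.75-fold at BRN1, and 0 of 5 had H3K4me2, which allows a share of up to 52.2% (upper limit of the exact 95% interval). Of 8 genes of the Smc5/6 complex 5 had H3K4me3 and 1 had H3K4me2 at the start. The highest H3K4me3 fold there, 3.62 at the SUMO ligase gene MMS21, came from a peak that also covered another start codon and had its summit outside the gene, the lowest was 2.75 at NSE5, and SMC6 had neither mark.

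**Figure D4:**
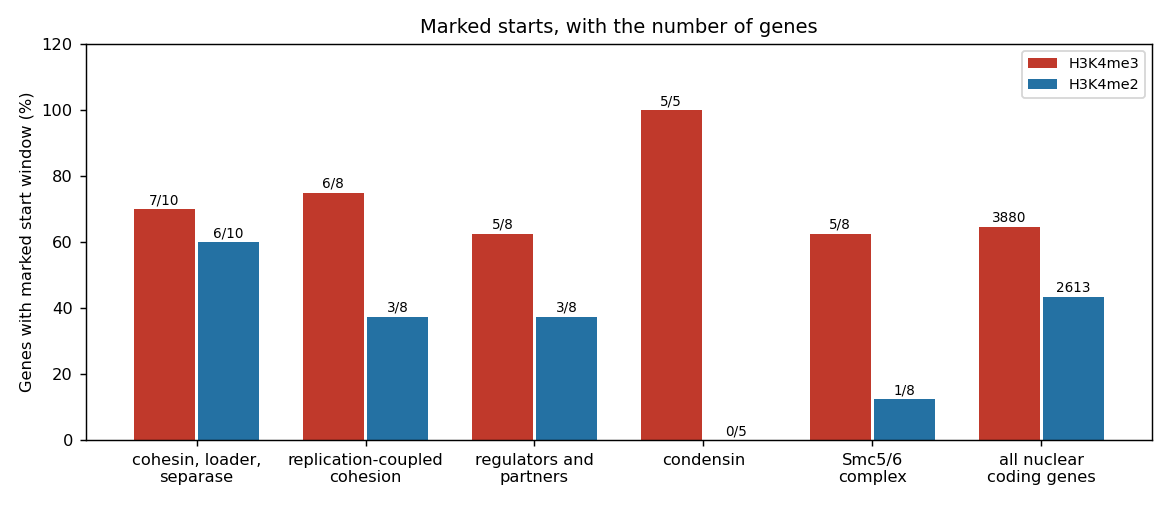
Share of genes whose start window is marked by H3K4me3 (red) or H3K4me2 (blue) in each gene list and in all 6002 nuclear protein-coding genes, with the number of marked genes above each bar. H3K4me3 bars lie between 62.5 and 100% in all lists, and H3K4me2 bars between 0% in condensin and 60% in the cohesin, loader and separase genes.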

How the data were processed

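Per the labels' protocols, formaldehyde-fixed chromatin was cut with micrococcal nuclease, precipitated with an antibody against either mark and sequenced on an Illumina platform. The nuclease spares DNA wrapped in nucleosomes, so nucleosome-free DNA is hardly sampled. Per the submitters' processing notes, CASAVA 1.8.2, MACS 1.4.2 (a peak caller) and the build sacCer3 were used. For the aligner, all settings, the caller's control and reads with several matches, the choices made were not given in the sources used here. Per the file headers, the authors deposited for each peak a start, end and summit, the tag count, a fold ratio over an unnamed background, and a p-value column. The deposited values in that column exceed 50 and were read as a score of -10 log10 p. Fold and score are the authors' own and were used within a list only. Peak positions are as deposited, and whether they count from 0 or 1 is not stated.

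Gene positions came from a RefSeq table of R64, the assembly that sacCer3 names; strand was read from the systematic name, and genes run from start to stop codon. Coverage, edges, distances and background shares were computed with scipy 1.17.1, pandas 2.3.3 and numpy 2.4.6 in Python 3.11.15 and drawn with matplotlib 3.10.9, after a check of the coverage code on simulated peaks. The start peak of a gene was the one covering most of its first 500 bp. The members and the lists of related genes were chosen with earlier results of these data known. The rule for named genes took all 10 members, genes whose start shares a peak with a member window, and in each related list the highest and lowest H3K4me3 fold and the longest gene without H3K4me3. Neighbouring genes and CDC14 were added after their values were seen. Alternatives were other peak thresholds, peak widths, windows and limits. A planned motif search in promoters was not run, and no sequence was used here.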

Additional observations from a re-analysis of the deposited data

How the results depend on the processing

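Of the counts over the 10 genes and over the 29 related genes and the median covered shares, 35 of 52 alternative values stayed near the reported one (counts within 1.5 times); the shared-peak counts of 0 are left out, since fewer or narrower peaks could not raise them. With only the stronger peaks of each list (fold no lower than the list's median), 2 genes had H3K4me3 at the start (IRR1 and PDS1), 3 had H3K4me2 and 1 had both. The related genes then numbered 7 and 3, and the median covered share was 0% for either mark. H3K4me2 was centred downstream in the 1 gene that kept both marks. Of all genes 34.5%, 23% and 14.1% then had H3K4me3, H3K4me2 and both. With a score of at least 100, ECO1 lost H3K4me3 and SMC1 and IRR1 lost H3K4me2. That left 3 genes with both marks, beside 28.4% of all genes, and in all 3 H3K4me2 was centred downstream. The median H3K4me2 share was then 0%. From 500 bp before to 500 bp after the start codon, SCC4, ECO1 and PDS1 lost H3K4me2. Then 3 genes had H3K4me2 and 3 had both, and of all genes 24.4% and 20.2%. With equal numbers of peaks, ECO1 lost H3K4me3, and 13 related genes had H3K4me3, beside 53.9% of all genes. With 500 bp around each summit, ECO1 and PDS1 lost H3K4me2, and 2 related genes had H3K4me2, beside 16.4% of all genes. The median covered shares over the 10 genes were then 12.3% for H3K4me3 and 5.98% for H3K4me2. Each setting changed peaks or windows by construction, and the depth of the libraries limits which weak peaks were listed. Alternatives for the related genes and for summit medians were added after the data were seen. No paired analysis was possible because each mark has 1 library.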

Other observations

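The same parts of the related SMC complexes differed in their marks, a comparison made after the values were seen. Of the kleisin genes, MCD1 of cohesin had both marks at its start, while BRN1 of condensin (H3K4me3 3.75-fold, 327 tags) and NSE4 of the Smc5/6 complex (3.04-fold, 249 tags) had H3K4me3 alone. REC8, which encodes the kleisin that replaces Mcd1 in meiosis, had no peak of either mark in the gene. Of the genes for the long SMC subunits, SMC1 had both marks, SMC2 (H3K4me3 3.09-fold, 794 tags) and SMC4 (3.06-fold, 861 tags) had H3K4me3 alone, and SMC3, SMC5 and SMC6 had no peak of either mark in the gene. The SMC4 peak began 1524 bp before the start codon and also covered the start codon of a neighbouring gene, and the SMC2 peak began 1287 bp before it, so their tags are not those of the SMC genes alone.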
